A study of Rattus norvegicus with 6 samples.

Results

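MicroRNA sequences of 16 to 19 nt, shorter than the 21 to 23 nt at which most miRNAs are found, were examined in small RNA libraries of RSC96 cells, a rat Schwann cell line. Each distinct sequence that the deposited counts list under a miRNA hairpin is called a tag. The short tags were chosen by 2 properties only, a length of 16 to 19 nt and a hairpin that is annotated and not predicted by the authors. No read count enters that rule. They number 1082 distinct tags among 7356 tags of annotated hairpins and 9522 tags in the whole series. They come from 201 of the 362 annotated mature arms, an arm being the 5p or the 3p side of a hairpin, and hold 140369 of 3753924 annotated counts.

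The 6 libraries comprised 3 of RSC96 cells kept in high glucose and 3 of RSC96 cells kept in low glucose, all for 48 h. The low glucose libraries were the controls, and the labels give no glucose concentration and no other agent. The title of the series concerns exosomes, the small vesicles that cells release. The labels do not say whether RNA came from vesicles or cells, and their extraction text names retinas while the sample fields name nerve and the cell line. The labels do not state whether replicates were grown as separate cultures, and the spread behind each p-value may therefore be technical. RSC96 is 1 immortalised line, so the libraries describe that line and not nerve tissue.

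The depth of the libraries differed by group. The high glucose libraries held 963706 to 1354456 counts and the low glucose libraries 114615 to 148143, a 9.31-fold difference between the group means. Between 514 and 629 short tags were listed in each high glucose library and between 116 and 133 in each low glucose library. Only 63 of the 1082 short tags were listed in all 6 libraries, 888 were listed in high glucose alone and 30 in low glucose alone. A tag enters the deposited files with 2 reads or more, so a tag listed at 0 may still have had 1 read, and numbers of tags were not compared between groups. Results are given as shares of counts, and depth was addressed by thinning.

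A mature miRNA is cut from its hairpin by the nucleases Drosha and Dicer and is bound by an Argonaute protein. The bases near its 5′ end, the seed, select the mRNAs it represses, and the Argonaute protein holds both ends. Exonucleases can shorten the 3′ end and other enzymes can add bases to it, without a change of seed. A shorter 5′ end, in contrast, moves the seed. Extensive pairing with a target RNA is known to expose the 3′ end to tailing and trimming and can lead to loss of the miRNA, which is called target-directed miRNA decay. In Schwann cells, miRNAs take part in myelination and in the response to nerve injury.

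The tags that carry most of the short counts or the clearest differences are printed 5′ to 3′, with the seed (bases 2 to 8 of the tag) in capitals. For each arm the most counted tag, or main tag, stands above the most counted short tag, so that the missing bases can be read at the right end. The first 3 arms share the seed ACCCGTA and the next 2 share CCCTGAG.
miR-99a-5p, main tag: aACCCGTAgatccgatcttgt
miR-99a-5p, short tag: aACCCGTAgatccgatct
miR-99b-5p, main tag: cACCCGTAgaaccgaccttgc
miR-99b-5p, short tag: cACCCGTAgaaccgacct
miR-100-5p, main tag: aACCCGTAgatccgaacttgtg
miR-100-5p, short tag: aACCCGTAgatccgaact
miR-125b-5p, main tag: tCCCTGAGaccctaacttgtg
miR-125b-5p, short tag: tCCCTGAGaccctaact
miR-125a-5p, main tag: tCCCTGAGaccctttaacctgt
miR-125a-5p, short tag: tCCCTGAGaccctttaacc
miR-27b-3p, main tag in low glucose: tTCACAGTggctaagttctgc
miR-27b-3p, short tag and main tag in high glucose: tTCACAGTggctaagttct
miR-21-5p, main tag: tAGCTTATcagactgatgttgac
miR-21-5p, short tag: tAGCTTATcagactgatgt
miR-22-3p, main tag: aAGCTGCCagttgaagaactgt
miR-22-3p, short tag: aAGCTGCCagttgaagaac
let-7i-5p, main tag: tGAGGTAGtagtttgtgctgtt
let-7i-5p, short tag: tGAGGTAGtagtttgtgc
miR-148a-3p, main tag: tCAGTGCActacagaactttgt
miR-148a-3p, short tag: tCAGTGCActacagaactt
miR-503-5p, main tag: tAGCAGCGggaacagtactg
miR-503-5p, short tag: tAGCAGCGggaacagtact
miR-29a-3p, main tag in high glucose: cTAGCACCatctgaaatcggtt
miR-29a-3p, main tag in low glucose: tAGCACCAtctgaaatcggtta
miR-29a-3p, short tag: tAGCACCAtctgaaat
miR-423-5p, main tag: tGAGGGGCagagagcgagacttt
miR-423-5p, short tag: tGAGGGGCagagagcgaga
Each short tag starts at the same base as a main tag printed above it. In miR-29a-3p that is the main tag of the low glucose libraries, and the main tag of the high glucose libraries starts 1 base earlier. These tags match their hairpins without a mismatch and were each listed under 1 arm.

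Short tags made up a larger share of the annotated counts in every high glucose library than in any low glucose library. The share was 3.84%, 4.75% and 3.36% in high glucose replicates 1, 2 and 3, and 1.36%, 1.35% and 1.43% in low glucose replicates 1, 2 and 3. The widest 95% Wilson interval of a single library ran from 1.36% to 1.51%, in low glucose replicate 3, and covers counting error only. The group means were 3.99% ± 0.705 and 1.38% ± 0.0426 (SD, n = 3 each), a ratio of 2.88, with p = 0.1 by an exact two-sided permutation test. That is the smallest p that 3 libraries against 3 allow.

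The share was recomputed with the libraries brought to 1 read total and to 1 mix of arms. With every library thinned to 114497 reads and the minimum of 2 reads applied again, the means were 3.87% ± 0.699 and 1.37% ± 0.0501. With the arms weighted by 1 common mix in all libraries they were 3.91% ± 0.643 and 1.61% ± 0.114. In both cases the groups did not overlap. Thinning equalises the number of reads only, and because no high glucose library was as shallow as any low glucose library, depth and glucose cannot be told apart by design.

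All 4 lengths took a larger share in each high glucose library than in each low glucose library. Tags of 19 nt held 1.54% ± 0.263 of annotated counts in high and 0.659% ± 0.00789 in low glucose, a ratio of 2.34. Tags of 18 nt held 1.52% ± 0.279 and 0.505% ± 0.0325, a ratio of 3.01. For 17 nt the values were 0.728% ± 0.147 and 0.156% ± 0.0208, which gave the highest ratio of the 4 lengths, 4.68. Tags of 16 nt held 0.194% ± 0.0342 and 0.0626% ± 0.0045, a ratio of 3.10. Each exact permutation p was 0.1, also after adjustment over the 4 lengths. Within the short counts alone, 17 nt tags rose from 11.2% ± 1.26 in low to 18.2% ± 1.00 in high glucose and 19 nt tags dropped from 47.7% ± 1.75 to 38.7% ± 1.9, neither with overlapping groups, although no exact permutation p could fall below 0.1. Just outside the length limit, tags of 20 nt held 2.33% ± 0.325 in high and 1.48% ± 0.0736 in low glucose.

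Most short counts came from tags that lacked bases at the 3′ end and kept the 5′ end. By distinct sequence, 532 of the 1082 short tags were shortened at the 3′ end only. Measured against the most counted tag of the same hairpin arm, 75.6% of the short counts were shortened at the 3′ end only, 5.45% at both ends and 2.97% at the 5′ end only. A further 14.7% lay in hairpin arms whose most counted tag was itself 16 to 19 nt long. Tags shortened at one end and extended at the other made up 0.742% (shorter 5′ end) and 0.498% (shorter 3′ end). The 5′ end of the main tag was kept by 89.8% to 90.5% of short counts in the high glucose libraries and by 87.3% to 88.3% in the low glucose ones. For tags of 20 nt or more of the same hairpins it was kept by 95.2% to 96.7%.

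Each class was compared between the groups. Tags shortened at the 3′ end held 2.91%, 3.56% and 2.57% of annotated counts in the high glucose libraries and 1.03%, 1.06% and 1.09% in the low glucose libraries, a ratio of means of 2.84. Tags shortened at the 5′ end held 0.126%, 0.134% and 0.0893% in high glucose and 0.0665%, 0.0715% and 0.0908% in low glucose. The 5′ class overlapped between the groups, with an adjusted p of 0.2 by the exact permutation test, against 0.117 for the 3′ class. Tags shortened at both ends held 0.217% ± 0.0506 and 0.0791% ± 0.0104, and arms with a short main tag held 0.591% ± 0.131 and 0.156% ± 0.0146, both without overlap. The main tag of an arm was chosen on summed counts, to which the deeper high glucose libraries contribute most. With the main tag chosen by mean CPM, tags shortened at both ends held 0.161% and 0.0395%, and arms with a short main tag 0.0467% and 0.0244%, in high and low glucose.

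Loss of 3 or 4 bases was the usual form of 3′ shortening. Of the counts shortened at the 3′ end only, 46.0% in high and 40.6% in low glucose lacked 3 bases, and 34.5% and 36.9% lacked 4. A loss of 1 or 2 bases, which needs a main tag of 20 or 21 nt to fall in this range, held 0.727% and 7.32% in high glucose. A loss of 7 bases held 0.962% in high and 0.592% in low glucose. Tags missing 5′ bases were spread over more sizes. Losses of 3 and 4 bases held 25.3% and 22.6% of them in high glucose, while losses of 5 and 6 bases held 31.5% and 31.7% in low glucose.

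A few arms supplied most of the short counts. The 5 arms with the most short counts over all libraries, miR-125b-5p, miR-27b-3p, miR-99a-5p, miR-99b-5p and miR-21-5p, held 61.6% of them. The 5 leading arms of each library, chosen library by library, held between 55.7% and 63.1% of its short counts. Short tags matched their hairpin exactly more often than longer tags did. The exact share was 96.2% to 97.6% of short counts and 86.5% to 89.5% of longer counts per library. Tags listed under more than 1 arm held 3.77% to 4.79% of short counts and 0.238% to 0.376% of longer counts. The GC content of short counts was 48.4% ± 0.0732 in high and 46.3% ± 0.278 in low glucose, without overlap, and that of longer counts 44.2% to 45.2% and 42.0% to 42.2%.

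The question for each arm was whether its own short share differed between the groups. edgeR's quasi-likelihood test compared the odds of a short against a longer count, with Benjamini-Hochberg adjustment at 0.05 over 115 arms, 94 annotated and 21 predicted, that had enough counts in every library. Over all 115 arms 13.9% were called in either direction, 11.3% higher in high glucose and 2.61% lower. Of the 94 annotated arms 13 rose, 1 fell and 80 did not pass, and 33 had an unadjusted p under 0.05, of which 32 were higher. All high glucose libraries lay above all low glucose libraries in 52 of the 94 arms, against 47.8% of all 115, and below them in 1, against 4.35%. These background shares contain the annotated arms themselves. The 10 short counts an arm needed could come from either group, and 29 of the 94 arms had none in low glucose, so they entered through high glucose alone. Of the 52 arms, 19 are among these 29, and the 52 is a description of the arms that entered the test. The 13 arms that rose held 59.4% of all short counts.

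The overall rise bears on how these calls read. With short and longer counts scaled apart by TMM, which sets each arm against the common rise, 6 annotated arms were higher and 2 lower. That scaling moved the median log2 odds ratio of all tested arms from 1.5 to 0.72 and the share of calls that were higher from 81.3% to 50% (6 of 12, predicted arms included). The 6 were miR-27b-3p, miR-125b-5p, miR-22-3p, miR-21-5p, let-7i-5p and miR-152-3p.

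miR-27b-3p, a miRNA studied in lipid metabolism and vessel growth, had a different main length in each group. Short tags held 49.2%, 56.8% and 45.2% of its counts in high glucose and 11.0%, 10.2% and 13.7% in low glucose. The groups lay far apart, with means of 50.4% ± 5.89 and 11.6% ± 1.86 (SD, n = 3 each) and a log2 odds ratio of 2.96 (SE 0.29, edgeR adjusted p = 0.0014). The 19 nt tag printed above held 46.5% ± 5.85 of the arm in high and 10.2% ± 1.96 in low glucose, and the 21 nt tag, which has 2 more bases at the 3′ end, held 21.5% ± 3.22 and 53.1% ± 4.61. The total level of the arm, scaled to the counts of the whole library (CPM), was 10114 ± 1000 with high and 10259 ± 885 with low glucose, a difference smaller than either spread. Its short counts were at 5135 ± 1118 and 1183 ± 122 CPM.

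Its paralog miR-27a-3p has the same seed and differs near the 3′ end. Short tags held 10.7% ± 1.58 of its counts in high and 6.89% ± 1.54 in low glucose, and the arm was not called (edgeR adjusted p = 0.223). The 18 nt tag that both paralogs share was listed under both arms, and 5.98% of the short counts of miR-27b-3p came from such shared tags. miR-24-5p, from the same clusters, had short shares of 49.4%, 46.9% and 44.4% in high and 28.4%, 29.5% and 28.9% in low glucose. These did not overlap, yet the arm did not pass the test (log2 odds ratio 1.12, SE 0.54, edgeR adjusted p = 0.184). miR-23b-3p was at 27.4% ± 4.95 and 9.96% ± 2.08 (edgeR adjusted p = 0.0877), and 86.5% of its short counts were shared with another arm, so its value is uncertain.

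Among the arms with the seed ACCCGTA, 2 rose and 1 did not pass. Short tags of miR-99a-5p held 9.83%, 9.81% and 7.12% of its counts in high and 3.97%, 4.21% and 4.14% in low glucose. Those of miR-100-5p held 4.61%, 7.38% and 3.29% in high and 1.01%, 0.698% and 1.79% in low glucose. Neither arm's groups overlapped, and the log2 odds ratios were 1.18 (SE 0.19, edgeR adjusted p = 0.00769) and 2.19 (SE 0.49, edgeR adjusted p = 0.0254).

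miR-99b-5p, the third arm with this seed, had a high short share in both groups. The values were 15.5%, 13.1% and 11.6% in high and 10.8%, 10.6% and 14.0% in low glucose, and the groups overlapped. The log2 odds ratio was 0.22 (SE 0.23, edgeR adjusted p = 0.539). Whether the arms of this seed differ from each other in their response was not tested. In all 3 arms the leading short tag was 18 nt long and ended at the same place, after the ct that precedes tg. It held 7.84% ± 1.29 and 3.62% ± 0.123 of miR-99a-5p, 10.7% ± 1.5 and 8.64% ± 2.05 of miR-99b-5p, and 4.32% ± 1.59 and 1.05% ± 0.380 of miR-100-5p, in high and low glucose.

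miR-125b-5p and miR-125a-5p, which share the seed CCCTGAG, both rose, from different levels. Short tags of miR-125b-5p, a miRNA known for its part in the control of p53 and of cell differentiation, held 26.3%, 33.3% and 20.7% of its counts in high and 2.94%, 2.86% and 5.38% in low glucose. The lowest high glucose library was well above the highest low glucose library, with a log2 odds ratio of 3.27 (SE 0.37, edgeR adjusted p = 0.0014). Its 17 nt tag held 18.6% ± 4.63 and 2.03% ± 0.933, and its 21 nt main tag 22.1% ± 5.12 and 70.3% ± 3.01. Other lengths of the arm filled the gap, since tags of 20 nt with the same 5′ end held 17.4% ± 2.26 and 4.57% ± 0.511 and those of 22 nt 27.6% ± 2.90 and 15.3% ± 1.9.

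In miR-125a-5p short tags were scarce. They held 3.24%, 2.95% and 4.08% in high glucose, while in low glucose they were listed only in replicate 2, at 0.794%, from 2 counts. The log2 odds ratio was 3.63 (SE 0.82, edgeR adjusted p = 0.0254), and with 2 low glucose counts in all its size is imprecise. The 19 nt tag of this arm again ends just before tg. Of the other arms of the family, miR-10a-5p was at 2.86% ± 0.440 and 1.39% ± 0.535 (edgeR adjusted p = 0.0624), and miR-10b-5p at 1.67% ± 0.210 and 1.56% ± 0.183 (edgeR adjusted p = 0.746).

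miR-21-5p, which rises after nerve injury and was the most abundant miRNA here, had a low short share that still supplied many counts. It was 1.49%, 2.90% and 1.64% in high and 0.568%, 0.620% and 0.634% in low glucose. The groups did not overlap (log2 odds ratio 1.68, SE 0.27, edgeR adjusted p = 0.00769). The 19 nt tag held 1.59% ± 0.659 and 0.395% ± 0.0155 of the arm, and tags of 20 nt with the same 5′ end only 0.0792% ± 0.0214 and 0.0474% ± 0.00776, so its length distribution had a second peak at 19 nt. As a whole the arm reached 165281 ± 33269 CPM with high and 437439 ± 18751 CPM with low glucose, while its short counts were at 3153 ± 471 and 2659 ± 241 CPM.

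miR-22-3p, a broadly expressed miRNA, had a similar second peak. Its short share was 12.9%, 15.0% and 11.96% in high and 2.40%, 2.22% and 2.98% in low glucose, without overlap (log2 odds ratio 2.57, SE 0.28, edgeR adjusted p = 0.0014). The 19 nt tag held 12.9% ± 1.58 and 2.54% ± 0.397. Its 22 nt main tag held 73.4% ± 2.56 and 84.3% ± 1.20. let-7i-5p, of the let-7 family that restrains proliferation, was at 4.22%, 7.41% and 5.91% against 1.43%, 1.70% and 1.25%, again without overlap (log2 odds ratio 2.03, SE 0.30, edgeR adjusted p = 0.00515). Its 18 nt tag held 5.16% ± 1.43 and 1.20% ± 0.293.

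miR-148a-3p and miR-152-3p share the seed CAGTGCA, which the tags of miR-148a-3p printed above show in capitals. Short tags held 49.9%, 62.0% and 58.7% of miR-148a-3p in high and 13.3%, 9.52% and 17.6% in low glucose (log2 odds ratio 3.10, SE 0.68, edgeR adjusted p = 0.024). The groups lay apart, but the low glucose values rest on 15 to 21 counts of the arm. In miR-152-3p the share was 11.4%, 9.16% and 5.81% against 0.917% and 0.843%, with none listed in low glucose replicate 3 (log2 odds ratio 3.89, SE 0.85, edgeR adjusted p = 0.024). The third arm of this seed, miR-148b-3p, was at 14.6% ± 2.72 and 7.25% ± 1.61 and did not pass (edgeR adjusted p = 0.228).

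miR-503-5p, which restrains the cell cycle and is related to miR-16, has a main tag of only 20 nt and a RefSeq mature entry of 23 nt. Its short tags lack as little as 1 base of that main tag. They held 31.2%, 56.5% and 37.8% in high and 10.3%, 10.1% and 8.11% in low glucose. No libraries overlapped (log2 odds ratio 2.75, SE 0.67, edgeR adjusted p = 0.0347). Its 19 nt tag held 35.7% ± 8.18 and 9.52% ± 1.22, while the level of the whole arm was 254 ± 29.6 CPM with high and 892 ± 229 CPM with low glucose.

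miR-29a-3p, known for repression of collagen and other matrix genes, differed at both ends. Its short share was 13.1%, 15.1% and 14.8% in high and 4.89%, 5.58% and 3.31% in low glucose, without overlap (log2 odds ratio 1.81, SE 0.31, edgeR adjusted p = 0.00769). The 16 nt tag held 6.18% ± 0.672 in high glucose, and in low glucose it was listed with 2, 0 and 3 counts. The 2 main tags printed above start 1 base apart and so have different seeds. The one with the seed TAGCACC held 41.9% ± 3.03 in high and 16.8% ± 1.48 in low glucose, and the one with the seed AGCACCA held 13.7% ± 3.97 and 39.1% ± 1.45. Measured against the main tag of the high glucose libraries, only 34.2% of its short counts were shortened at the 3′ end alone. On that measure it supplied 27.3% of all counts shortened at both ends. The 16 nt tag, 41.4% of its short counts, starts with the low glucose main tag and lacks only 3′ bases against it.

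miR-122-5p, the main miRNA of the liver, also rose, at 5.40%, 3.58% and 3.41% against 0.868%, 0.670% and 1.04% without overlap (log2 odds ratio 2.27, SE 0.39, edgeR adjusted p = 0.00769). Leaving out 1 library ended the call of 5 of the 13 arms that rose. miR-503-5p lost it without high glucose replicate 2 or 3 or any low glucose library, and miR-148a-3p without high glucose replicate 3 or any low glucose library. miR-100-5p lost it without high glucose replicate 1 or low glucose replicate 1 or 2, miR-125a-5p without high glucose replicate 1 or low glucose replicate 1 or 3, and miR-152-3p without low glucose replicate 1 or 2. Without low glucose replicate 1 the count of annotated arms higher was 8.

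miR-423-5p was the annotated arm whose short share fell. Short tags held 0.863%, 1.20% and 0.914% of its counts in high and 5.06%, 3.77% and 4.57% in low glucose. All high glucose libraries lay below all low glucose libraries (log2 odds ratio -2.23, SE 0.26, edgeR adjusted p = 0.0014). The 19 nt tag held 0.714% ± 0.0254 and 3.01% ± 0.0714. Longer lengths differed in the same sense, with the 23 nt tag printed above at 55.6% ± 2.49 in high and 30.3% ± 1.10 in low glucose. The 21 nt tag that ends 2 bases earlier was at 16.04% ± 1.57 and 38.9% ± 2.14. In low glucose this 21 nt tag, and not the printed one, was the main tag. The other arm of this hairpin, miR-423-3p, was at 13.9% ± 2.91 and 12.8% ± 4.58, with overlap (edgeR adjusted p = 0.878).

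The bases that follow the 3′ end of a short tag in its hairpin were not evenly distributed. The count shares given here are of the short counts that kept the 5′ end of the main tag. Of these, 58.6% to 60.2% in high glucose and 52.0% to 54.6% in low glucose came from tags that end just before TG. The last base of the tag was T for 73.4% and 62.5% of them in high and low glucose (group means). Without the 5 arms with the most short counts, TG followed 36.8% to 40.7% of such counts in high and 21.0% to 23.0% in low glucose. Counting each hairpin arm once, by its most counted short 3′ end that lies inside a longer main tag, TG followed in 32 of 166 hairpin arms, or 19.3%, while 13.0% of the 664 places where a short tag of 16 to 19 nt could have ended were followed by TG. In 9 of the 13 arms that rose the leading short tag ended before TG. These are miR-99a-5p, miR-100-5p, miR-125b-5p, miR-125a-5p, miR-21-5p, miR-22-3p, let-7i-5p, miR-148a-3p and miR-152-3p. Those with a shared seed are similar in sequence and are not independent cases. The same share was not computed for the tested arms that were not called, so 9 of 13 describes these arms only. In miR-423-5p it ended before CT, and in miR-99b-5p, which did not pass, before TG.

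Tags missing only 5′ bases, whose seeds differ from that of the main tag, were led by a different set of arms. let-7c-5p supplied 17.6% of them, miR-21-5p 15.2%, miR-30d-5p 10.2% and let-7b-5p 8.06%. In miR-21-5p they held 0.106%, 0.0368% and 0.0823% of the arm in high and 0.0827%, 0.106% and 0.132% in low glucose, so the groups overlapped. Those of miR-30d-5p held 0.313%, 0.197% and 0.253% against 0.237%, 0.197% and 0.258%, also with overlap. let-7b-5p was at 0.0926%, 0.208% and 0.120% in high glucose and listed at 0 in the 3 low glucose libraries, and let-7c-5p was at 0.205%, 0.278% and 0.0674% against 0.217% in low glucose replicate 3 and 0 in the other two. Among tags shortened at both ends, miR-10a-5p supplied 25.7% and miR-10b-5p 17.3%, next to miR-29a-3p.

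Short main tags were found in 36 hairpin arms, of which 9 had 50 or more counts. miR-27b-3p was the most counted of them. In the tested annotated arms the mean short share ranged from 0.0606% to 70.4% in high glucose. Among the arms with a low share, miR-30d-5p was at 0.330% ± 0.0413 in high and 0.330% ± 0.0825 in low glucose, and miR-26a-5p at 0.254% ± 0.0882 in high glucose with no short tag listed in low glucose. In 29 tested arms no short tag was listed in any low glucose library. None of those 29 was called by edgeR, 11 had an unadjusted p under 0.05, DESeq2 called 7 and limma 9, and their fitted values are no measure of size because the low glucose counts are 0.

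Lists of families were read by their counts, beside 13.8% of the 94 annotated arms called higher and 77 of the 94 with a positive log2 odds ratio. Of the 94 arms, 29 had no short count in low glucose, so their positive sign was set by how they entered the test. Counts of positive signs therefore only describe the arms tested. In the family of miR-10, miR-99, miR-100 and miR-125, 4 of 9 tested arms rose and 8 of 9 had a positive log2 odds ratio, with a median of 1.08. Over all arms tested the median was 1.5, which includes arms with no short count in low glucose. Over the fewer arms tested in other settings it was 0.80 after thinning and 0.46 with tags in all 6 libraries. The family medians are therefore not ranked against 1.5. In the let-7 and miR-98 family 1 of 9 rose (median 1.36), and let-7b-5p, at 2.68% ± 0.193 and 1.91% ± 0.293, did not pass (edgeR adjusted p = 0.118). Of the arms of miR-23, miR-24 and miR-27, 1 of 6 rose (median 1.29). The single tested arm of the miR-29 family rose, and 1 of 2 arms of the family of miR-15, miR-16 and miR-503. No arm of these lists fell by edgeR, DESeq2 or limma, and none was lower at an unadjusted p under 0.05.

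In several families no arm passed edgeR's test. This held for 5 arms of the clusters of miR-17 to miR-92, 4 of the miR-30 family and the 2 of miR-221 and miR-222, none of which had an unadjusted p under 0.05 or was called by DESeq2 or limma. miR-221-3p, which promotes proliferation, was at 1.91% ± 0.372 and 0.902% ± 0.516 (edgeR adjusted p = 0.147). Of the 2 tested arms of the miR-26 family 1 had an unadjusted p under 0.05 and was called by DESeq2 and limma, namely miR-26a-5p, whose short tags were listed at 0 in low glucose. The 2 tested miR-181 arms were called by none of the tools and had no unadjusted p under 0.05.

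Lists by function gave the following counts. Among miRNAs that are known targets of target-directed decay, 1 of 7 tested arms rose, miR-503-5p, beside 13.8% of all annotated arms tested. miR-7a-5p, the miRNA decayed by the long RNA Cyrano, had short shares of 8.11%, 13.3% and 8.46% in high and 3.33% in low glucose replicate 2, with none listed in the other low glucose libraries. It did not pass (log2 odds ratio 3.03, SE 1.07, edgeR adjusted p = 0.106). In the list of miRNAs reported in Schwann cells or injured nerve, 2 of 10 tested arms rose, miR-21-5p and miR-27b-3p. The counts of both lists are read as near that share and as no result about the lists.

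Some markers of other cell types differed between the groups too, while the retinal, leukocyte and endothelial sums overlapped. The Schwann cell and nerve injury list summed to between 186650 and 262765 CPM with high and between 482694 and 518384 CPM with low glucose, most of it miR-21-5p, and 2 of its 20 miRNAs, miR-138 and miR-9b, were at 0. Erythroid miRNAs, 0 of 4 at 0, summed to between 834 and 1025 CPM with high and between 3780 and 6483 CPM with low glucose. Liver miRNAs, 0 of 3 at 0, summed to 9214 to 14931 and 3220 to 4572 CPM, and miR-122-5p among them is an arm that rose. Neuronal miRNAs, with 3 of 7 at 0 including miR-124, summed to 16732 to 21957 and 8006 to 9039 CPM. Retinal miRNAs stayed between 57.9 and 131 CPM, with miR-96 at 0, and had no short tag. Muscle miRNAs, with miR-133a and miR-133b at 0, summed to 40.6 to 109 CPM with high and 0 to 40.5 CPM with low glucose. Fibroblast miRNAs summed to 281 to 358 CPM with high and 398 to 445 CPM with low glucose. Leukocyte miRNAs lay between 45.0 and 250 CPM. Endothelial miRNAs ranged from 0 to 101 CPM, with no short tag. The sample fields name the RSC96 line, and whether cells of other types were present was not tested. In libraries of this kind fewer cells of a type and less RNA per cell cannot be told apart. The part of these marker miRNAs in the short shares was not tested either.

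Short tags of predicted hairpins, which are outside the set described, were more common in both groups. They held 71.9%, 65.7% and 57.7% of the counts of predicted hairpins in high and 32.1%, 30.9% and 38.0% in low glucose, without overlap. The 21 predicted arms tested included 2 that were called, both lower in high glucose.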

How the data were processed

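Small RNA was sequenced in 6 libraries, 3 per group, and groups and replicate numbers were taken from the titles. The authors' deposited files hold raw read counts per tag and hairpin, per the file headers, for tags of 16 to 40 nt with at least 2 reads and at most 1 mismatch. Novoalign 3.02.12 and cutadapt 1.9.3 are named in the submitters' processing notes. Their roles, the build of the genome and the hairpin release are not stated there, and coordinates are therefore left out. The members and lists were chosen with earlier results of these data known.

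From these counts, copies of one miRNA were joined, and a tag was given to an arm by its centre against the hairpin midpoint. Counts of tags under several hairpins were already divided among them. Tag sequences were read from the deposited files, and 277 of the 362 annotated arms had a mature entry in a RefSeq table of the assembly GRCr8. Python 3.11.15 (pandas 2.3.3; NumPy 2.4.6; SciPy 1.17.1) and R 4.3.3 were used, with the main test from edgeR 4.0.16 and alternatives from DESeq2 1.42.0 and limma 3.58.1.

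edgeR's quasi-likelihood fit had 2 columns per library, short and longer counts, with 1 shared library size, a term per library and a term for short counts in high glucose. Arms with at least 10 counts in every library and 10 short counts in all were tested. On simulated data with these depths it called 8 of the 25 tested arms whose odds were changed 4-fold, with 0 false calls. The simulated spread between libraries was set and not estimated, and directions were random without a common shift. It therefore does not measure false calls in the real data. Thinning used 20 seeded draws for the library shares, and the fits per arm used the first draw only.

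Arms were named by a rule: the 10 with the highest short CPM, the 8 with the highest short share among those with 50 arm counts in every library, called arms without overlap and with 50 short counts (up to 10 in each direction), and the 2 with the most short counts in each list. miR-27a-3p and let-7c-5p were singled out with their values known. Other scalings, tests, filters and tag sets, a replicate block and fits without each library were tried, and the common arm mix was added after the data were seen. Reads carry no molecular identifiers here.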

Additional observations from a re-analysis of the deposited data

How the results depend on the processing

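The overall short share, each of the 4 length shares and the 3′ shortened share kept their direction and non-overlapping groups under thinning, under exact tags and, where applied, without any 1 library. With predicted hairpins added, the overall share was 7.36% against 4.87% and the groups overlapped (exact permutation p = 0.2). The number of annotated arms higher in high glucose, 13, became 6 with short and longer counts scaled apart, 24 with DESeq2, 27 with limma on log odds and 6 with tags of 16 to 18 nt, and ranged from 8 (without low glucose replicate 1) to 13 without 1 library. The number lower, 1, became 2 when scaled apart, 2 after thinning, 3 with tags present in all 6 libraries and 0 with tags of 16 to 18 nt, where 2 had an unadjusted p under 0.05. The log2 odds ratio of miR-423-3p reversed to -2.79 with tags present in all 6 libraries. The 16 to 18 nt setting drops the 19 nt tags that lead in miR-27b-3p and miR-22-3p. For the other changes the cause was not tested. let-7i-5p, miR-125b-5p and miR-21-5p kept their calls in every alternative in which they were tested. In the first draw, the only one fitted per arm, thinned counts kept 13 of the 13 calls of higher arms. Replicate numbers are shared by the groups, but same-numbered libraries did not deviate together (r = -0.08, -0.07 and -0.08 across 115 arms, which are not independent), and with the replicate block 15 annotated arms were higher and 1 lower. With the main tag taken by mean CPM, which gives both groups equal weight, arms with a short main tag differed by 0.0223 percentage points of annotated counts in place of 0.435, since the main tag of miR-27b-3p is then 21 nt. Depth limits low glucose most, where tags of 2 reads hold 4.09% to 4.74% of short counts against 0.326% to 0.475% in high glucose.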
